A study of Mus musculus with 4 samples.

Results

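The proteasome genes examined here were the 38 mouse protein-coding genes whose symbol starts with Psma, Psmb, Psmc or Psmd, without Psmb8 and Psmb9, out of 21887 protein-coding genes that RefSeq lists on GRCm38.p6 (mm10). Chromatin immunoprecipitation with sequencing had been used to map H3K9ac, the acetylation of lysine 9 on histone H3 found at active promoters. The cells were BM-derived mouse MDSC (myeloid-derived suppressor cells), which dampen T cell responses, and had been made senescent in vitro. The treated cells were kept in CM plus romidepsin, an inhibitor of class I histone deacetylases, and their controls in CM alone. The labels do not expand CM and give no dose, time, strain, age or number of animals. Each condition had 1 immunoprecipitated library, whose broad peak list was used, and 1 input library that was not analysed here. No difference between the conditions therefore has a replicate check, no test was run, and the values stand side by side.

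The proteasome is the large protease that degrades ubiquitin-tagged proteins in the cytosol and nucleus. Its 20S core is a barrel of outer alpha rings, which gate the entrance, and inner beta rings, which hold the protein-cutting sites. The 19S cap at the ends of the barrel recognises ubiquitin, removes it and feeds the unfolded substrate into the core through a ring of ATPases. All the subunits are needed in fixed proportions, and their genes are active in nearly every cell type. By role the 38 genes comprised 7 genes of the 20S alpha ring (Psma1 to Psma7), 7 of the constitutive beta ring (Psmb1 to Psmb7), 6 ATPases (Psmc1 to Psmc6) and 11 other subunits of the 19S cap (from Psmd1 to Psmd14), which makes 31 structural subunits, and 3 assembly chaperones of the cap (Psmd5, Psmd9 and Psmd10). The remaining 4 are not constitutive subunits: Psma8 belongs to spermatocytes, Psmb11 to the thymic cortex and Psmb10 to the immunoproteasome, and Psmc3ip encodes a meiotic recombination factor named for binding the product of Psmc3. They are kept in the counts because their symbols meet the definition, and are described apart.

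The start regions of 5 genes show what lay under, or outside, the peaks described next. The windows run from 250 bases before to 50 bases after a start site listed in RefSeq (GRCm38.p6). Psmb5 and Psmb6 encode catalytic beta subunits. Psma2 shares its start region with a divergent neighbour, Psmd10 had the shortest CM peak of the proteasome genes, with the lowest fold, and Psmb11 had no CM peak. The windows are chr14:54617946-54618245 (minus strand) for Psmb5, chr11:70525107-70525406 (plus strand) for Psmb6, chr13:14612992-14613291 (plus strand) for Psma2, chrX:140956662-140956961 (minus strand) for Psmd10 and chr14:54625060-54625359 (plus strand) for Psmb11, each printed 5′ to 3′ along its gene. Capitals mark matches, on either strand, to the antioxidant response element core TGACNNNGC, the CCAAT box CCAAT, the nuclear respiratory factor core GCATGCGC, the ETS core CCGGAAG, the TATA box TATAAA and the E-box CACGTG.
Psmb5: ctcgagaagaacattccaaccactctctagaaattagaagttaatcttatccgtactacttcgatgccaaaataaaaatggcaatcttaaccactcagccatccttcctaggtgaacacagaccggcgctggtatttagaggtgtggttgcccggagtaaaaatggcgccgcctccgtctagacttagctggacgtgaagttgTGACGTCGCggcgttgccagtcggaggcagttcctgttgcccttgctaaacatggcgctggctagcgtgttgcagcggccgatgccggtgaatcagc
Psmb6: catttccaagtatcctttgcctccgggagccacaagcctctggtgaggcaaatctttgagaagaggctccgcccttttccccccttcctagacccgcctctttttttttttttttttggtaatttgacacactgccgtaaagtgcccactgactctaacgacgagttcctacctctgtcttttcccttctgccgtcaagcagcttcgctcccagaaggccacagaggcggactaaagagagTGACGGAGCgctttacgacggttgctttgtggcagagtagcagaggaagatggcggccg
Psma2: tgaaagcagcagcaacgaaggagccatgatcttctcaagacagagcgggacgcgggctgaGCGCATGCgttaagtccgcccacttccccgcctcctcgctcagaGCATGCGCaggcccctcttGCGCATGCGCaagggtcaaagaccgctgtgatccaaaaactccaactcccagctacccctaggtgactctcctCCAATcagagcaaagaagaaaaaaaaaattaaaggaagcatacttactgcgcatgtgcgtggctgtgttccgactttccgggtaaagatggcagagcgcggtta
Psmd10: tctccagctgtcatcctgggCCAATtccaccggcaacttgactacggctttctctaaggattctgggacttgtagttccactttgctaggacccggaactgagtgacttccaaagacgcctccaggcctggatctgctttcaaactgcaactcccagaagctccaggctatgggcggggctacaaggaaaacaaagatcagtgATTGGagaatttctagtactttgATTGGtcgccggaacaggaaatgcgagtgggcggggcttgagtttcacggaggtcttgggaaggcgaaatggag
Psmb11: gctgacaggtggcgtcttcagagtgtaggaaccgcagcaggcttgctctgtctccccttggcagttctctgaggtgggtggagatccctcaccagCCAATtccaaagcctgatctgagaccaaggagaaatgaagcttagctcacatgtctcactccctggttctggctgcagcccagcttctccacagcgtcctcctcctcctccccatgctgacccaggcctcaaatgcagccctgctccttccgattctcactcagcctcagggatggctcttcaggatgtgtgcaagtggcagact
The Psmb5 and Psmb6 windows each hold 1 antioxidant response element core, whose first base lies 47 and 9 bases before the start site. The Psma2 window holds 4 nuclear respiratory factor cores, 2 of which overlap, and a CCAAT box. The Psmd10 window holds 3 CCAAT boxes and the Psmb11 window 1.

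The lists themselves differ greatly in size. The romidepsin list held 103336 peaks over 200.4 Mb and the CM list 16419 peaks over 23.0 Mb. The authors' lists give no read numbers, so the depth of the libraries is unknown, and its part in the differences below was not tested. The fold of a peak is the authors' enrichment over their peak caller's background, averaged over the whole peak, and its median over all peaks was 2.64 with romidepsin and 5.04 in CM. Folds of the lists therefore do not show a gain or loss between the conditions. Of 10 myeloid marker genes, all 10 had a peak with romidepsin and 8 in CM, where S100a9 and Ly6g had none. Of 5 lymphoid markers, 3 had a peak with romidepsin and 1 in CM (Cd79a, in a peak that also met Arhgef1). Of 2 erythroid markers, 1 (Klf1) had a peak in each list, and Gata1 had none. The romidepsin peak of Klf1 also met Dnase2a and Mast1. Of 3 stromal and endothelial markers, 3 had a peak with romidepsin and 1 in CM (Pecam1, 447 bp). Beside these counts, 68.3% of all protein-coding genes had a peak with romidepsin and 53.6% in CM. Whether other cells contributed to the proteasome gene peaks was not tested.

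Nearly all proteasome genes carried H3K9ac in both conditions. A peak was assigned to a gene if it overlapped the gene's span, extended by 1 kb on either side, by at least 1 bp. By this count 37 of 38 genes had a peak with romidepsin, against 68.3% of all protein-coding genes, and 36 of 38 had a peak in CM, against 53.6% of all. All 31 structural subunit genes and the 3 chaperone genes had a peak in both lists. A peak with romidepsin only was found at 1 gene, Psmb11 (14.8% of all genes), and a peak in neither list at 1, Psma8 (31.7% of all genes). The median gene span was 12362.5 bp for the proteasome genes and 17169 bp for all protein-coding genes. Other housekeeping groups had similar counts: cytosolic ribosomal protein genes had a peak at 78 of 81 genes with romidepsin and 77 of 81 in CM, and nuclear-encoded respiratory chain genes at 96 of 100 and 91 of 100.

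With romidepsin the start of most genes lay inside a long peak, with further peaks in the gene body, where CM had a single short peak at 34 of 36 genes. The longest peak at a gene had a median of 5496 bp with romidepsin (interquartile range 4322 to 8083, 37 genes) and 1518 bp in CM (1100.5 to 1854.25, 36 genes). The medians over all protein-coding genes with a peak were 4872 bp with romidepsin and 1606 bp in CM. Among genes with a CM peak, the romidepsin median was 5597.5 bp over 36 proteasome genes and 5951 bp over all protein-coding genes, so the order of the medians depends on which genes are taken. The ratio of the lengths, romidepsin over CM, had a median of 4.03 (interquartile range 2.99 to 4.91) over the 36 genes with both peaks, beside 3.61 over 11725 protein-coding genes. The romidepsin peak was at least 2 times as long as the CM peak at 35 of 36 genes, against 92.0% of all genes with both, a share near that of the genome. At 33 of 36 genes the longest CM peak lay wholly inside the longest romidepsin peak (83.4% of all genes with both). The exceptions were Psma6, Psmb6 and Psmd11. With the overlapping romidepsin peak taken throughout, the median ratio was 3.61 for the proteasome genes and 3.37 for all protein-coding genes. In that pairing each of the 36 CM peaks lay wholly inside its romidepsin peak. The share over all protein-coding genes is not given for this pairing, so the count is not read as particular to these genes.

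**Figure D1:**
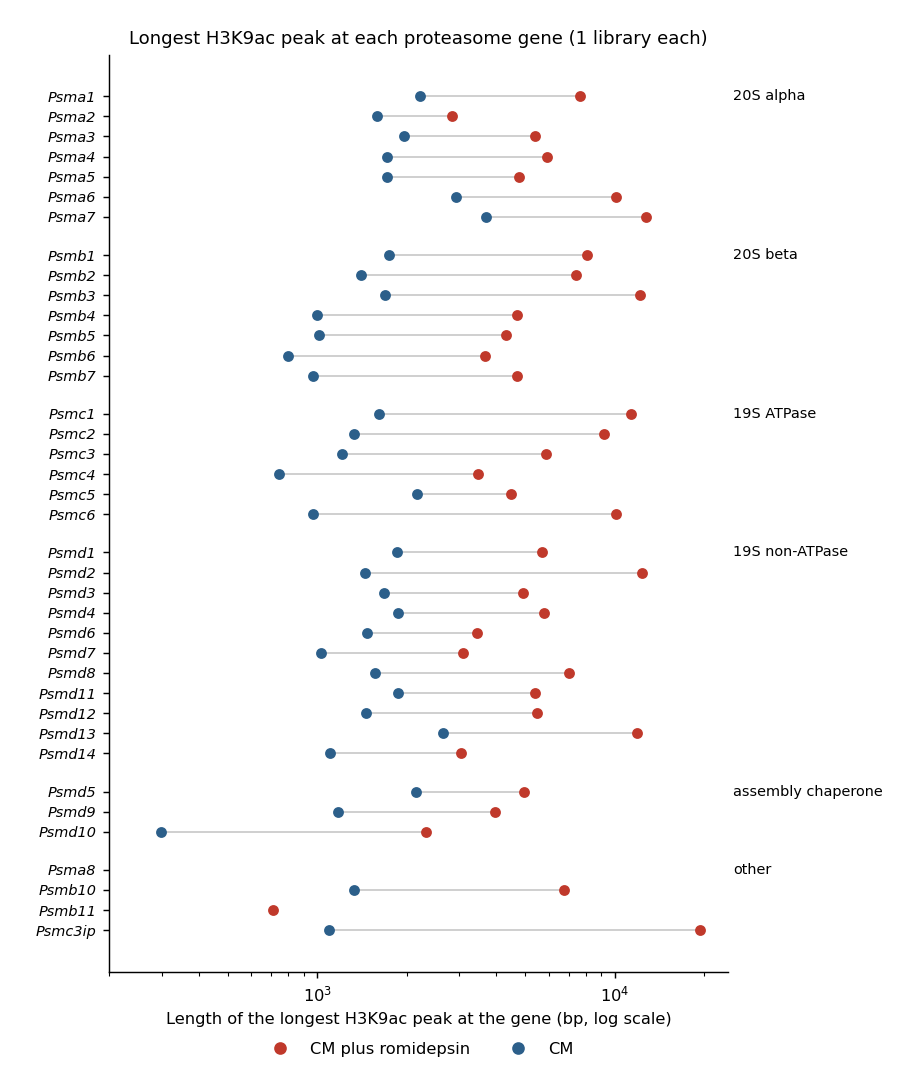
Length in bp, on a log scale, of the longest H3K9ac peak at each of the 38 proteasome genes in CM plus romidepsin (red) and CM (blue), 1 library each, with a grey line joining the values of a gene. Every gene with both values has the longer peak with romidepsin, Psmb11 has a romidepsin value of 708 bp only, and Psma8 has none.

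The number of peaks per gene also differed. The 37 genes held 143 peaks with romidepsin, up to 15 at a gene, and the 36 genes held 38 peaks in CM, with 2 each at Psma3 and Psmc2 and 1 each elsewhere. A single peak was found at 8 of 37 genes with romidepsin (27.4% of all genes with a peak) and at 34 of 36 in CM (75.2%). Peaks at both ends of the gene, within 1 kb of each, were found at 20 of 37 genes with romidepsin (41.9%) and at 0 of 36 in CM (8.80%). A peak at a single end was found at 17 of 37 genes with romidepsin (51.5%) and at 35 of 36 in CM (82.3%), where the exception was Psma6. The share of the extended gene span lying in peaks had a median over the 38 genes of 43.0% with romidepsin and 10.5% in CM, beside 12.1% and 0.889% over all protein-coding genes, many of which had no peak. Over the protein-coding genes with a CM peak the medians were 37.1% with romidepsin and 6.36% in CM. Only 3 genes lay wholly inside a romidepsin peak (5.56% of all genes), namely Psma7, Psmb10 and Psmc3ip, and 0 genes did so in CM (0.781%).

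The peaks were placed relative to start sites. The set of RefSeq promoter windows used here gave a start site for 31 of the 38 genes. It had no entry for Psma8, Psmb1, Psmb2, Psmb7, Psmc3, Psmd3 and Psmd7, which are left out of the start-site and motif results. The promoter window of 250 bases before to 50 after the start met a peak at 30 of the 31 genes with romidepsin, against 60.4% of 17492 protein-coding genes, and at 28 of 31 in CM, against 47.9%. In CM the windows of Psmb11, Psmd8 and Psmd10 met no peak. At Psmd8 the CM peak began 89 bases into the gene and at Psmd10 202 bases into it, while the romidepsin peaks of both genes covered the start. For 23 genes the same listed start lay inside the longest peak of both lists, which allowed the peak to be measured from the start. The romidepsin peak reached a median of 2019 bp upstream and 4131 bp downstream, and the CM peak 500 bp upstream and 1068 bp downstream. The downstream arm was the longer at 17 of the 23 genes with romidepsin (72.9% of all genes measured in the same way) and at 17 of the 23 in CM (78.9%). Romidepsin peaks reached 1332 bp further upstream and 3067 bp further downstream at the median gene. Over 6420 protein-coding genes measured in the same way the added lengths were 1326.5 and 2144 bp.

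**Figure D2:**
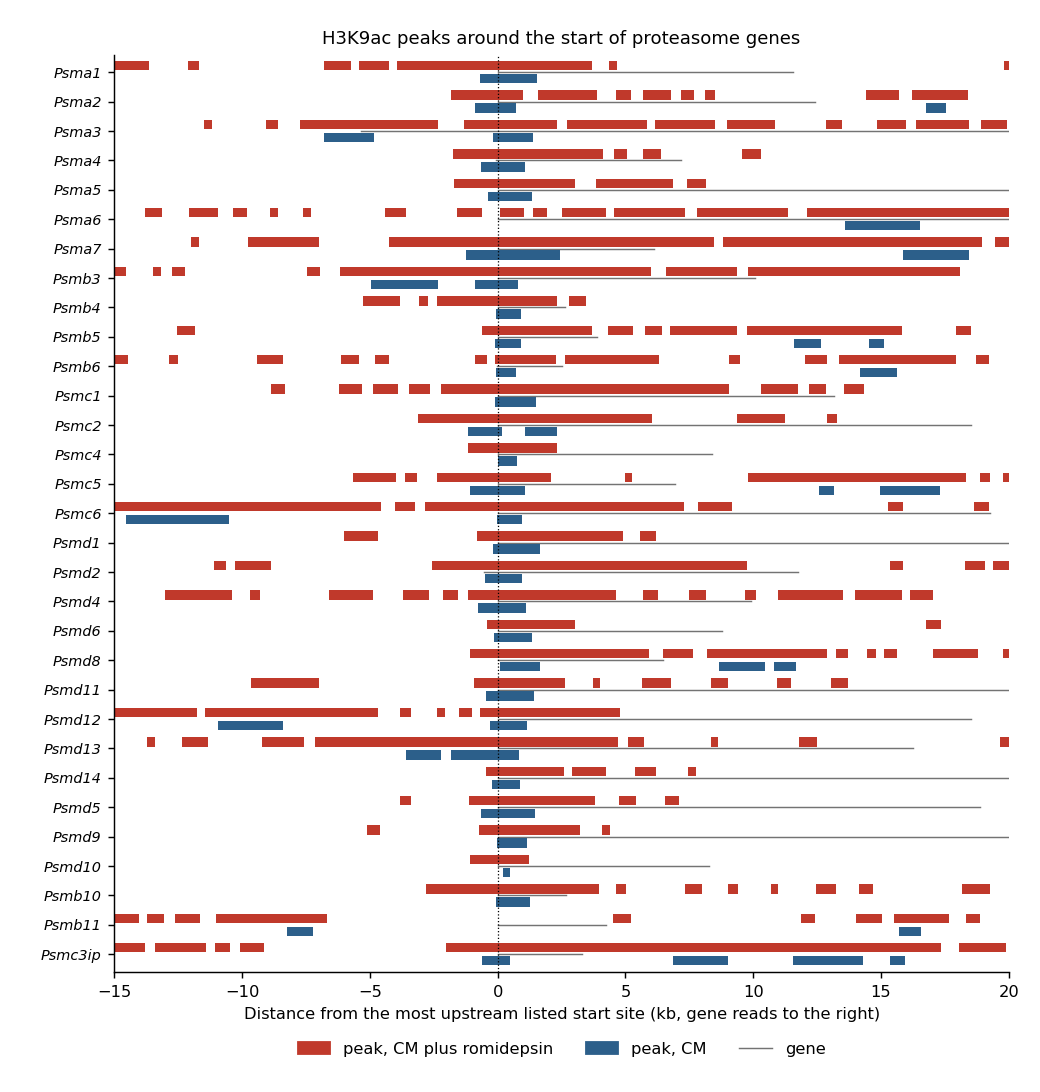
Peaks of CM plus romidepsin (red, upper bar) and CM (blue, lower bar) from 15 kb before to 20 kb after the most upstream start site listed for 31 proteasome genes, with the gene as a grey line reading to the right. At most genes a CM bar lies at the start, and a romidepsin bar spans it and continues downstream. No bar spans the plotted start of Psma6, whose CM bar lies far inside the gene, or that of Psmb11. Bars upstream of Psmb11 include the peaks of Psmb5.

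The widening can be read as the share of genes with a peak at a given distance from the start. Distances were not limited to the gene, so past the end of a short gene, such as Psmb6 (2535 bp), a peak beyond it counted. Among the 30 proteasome genes with a listed start and a CM peak, the start base was covered by a peak at 96.7% with romidepsin and 86.7% in CM. At 1 kb downstream of the start the shares were 100% and 53.3%, and at 3 kb they were 86.7% and 0%. At 6 kb downstream 56.7% were covered with romidepsin. On the upstream side the romidepsin share was 76.7% at 1 kb and 30% at 3 kb. Over the 9518 protein-coding genes with a listed start and a CM peak, the romidepsin share was 60.8% at 3 kb downstream. It was 40.8% at 6 kb downstream and 41.5% at 3 kb upstream. Nearer the start the gene sets were closer. All these genes stood at 93.7% with romidepsin and 79.6% in CM at the start base, and at 90.9% and 50.5% at 1 kb downstream. Their romidepsin share at 1 kb upstream was 74.6%. At 7 kb downstream the romidepsin shares were 36.7% for the proteasome genes and 37.9% for all. The differences between the gene sets rest on 30 genes of a single library pair, and were not tested.

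**Figure D3:**
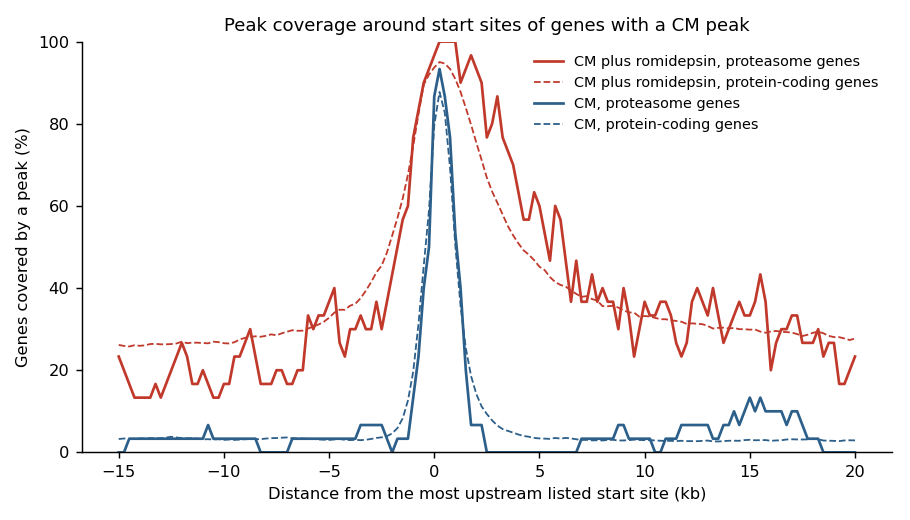
Percentage of genes covered by a peak (y axis) against distance in kb from the most upstream listed start site (x axis), for 30 proteasome genes (solid) and 9518 protein-coding genes (dashed) with a CM peak, in CM plus romidepsin (red) and CM (blue). At 3 kb downstream of the start, within or beyond the gene, the romidepsin curves stand at 86.7% and 60.8%, and the CM curves at 0% and 6.52%.

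The 7 alpha ring genes had the highest median CM length of the role groups. Their median was 5898 bp with romidepsin and 1958 bp in CM, with ranges of 2846 to 12707 and 1584 to 3690 bp. Psma7 (chromosome 2, 180036367 to 180042464) had the longest peaks of the ring, 12707 bp with romidepsin (fold 4.09) and 3690 bp in CM (fold 5.99), which put it at the 88.4 and 93.8 percentile of peak length among genes with a peak in each list. Both peaks also met Ss18l1, whose divergent start lies 19 bases away, and the romidepsin peak met Lsm14b. Psma2 (chromosome 13, 14613242 to 14625673) had the shortest, 2846 bp with romidepsin and 1584 bp in CM, a ratio of 1.80 that was the lowest of all 36 genes, in peaks shared with the mitochondrial ribosomal gene Mrpl32, whose divergent start lies 205 bases away. Psma2 had 6 romidepsin peaks spaced along the gene, so its small ratio came with a covered share of 47.7% with romidepsin and 10.98% in CM. The ratios of Psma1, Psma4, Psma6 and Psma7 lay between 3.43 and 3.44. With the overlapping peak taken, the ratio of Psma6 was 2.76, and the median of the ring 2.78 in place of 3.43.

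At Psma3 and Psma6 the listed starts can be compared with the peaks. Psma3 (chromosome 12, 70969283 to 70995877) held 10 peaks with romidepsin and 2 in CM. The 5′ end of the gene span lay in a romidepsin peak of 5386 bp (fold 3.75) and a CM peak of 1958 bp (fold 5.40). The start site listed at position 70974623 lay in a romidepsin peak of 3614 bp (fold 4.41) and a CM peak of 1570 bp (fold 6.14). For Psma6 (chromosome 12, 55384222 to 55418459) RefSeq lists starts at 55384222 and 55398825. The promoter window of the upstream start met no peak in either list. The downstream start lay inside a romidepsin peak of 8105 bp (fold 4.04) and inside the only CM peak, 55397806 to 55400739, of 2934 bp (fold 5.09). The upstream window had 3 CpG dinucleotides in 300 bases and the downstream window 22. The longest romidepsin peak of Psma6, 10104 bp, lay at the far end of the gene.

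The 7 constitutive beta ring genes had the lowest median CM length among the 4 groups of structural subunits, with a median of 4680 bp with romidepsin (range 3657 to 12181) and 1011 bp in CM (range 799 to 1737). Their CM range overlaps that of the alpha ring between 1584 and 1737 bp, and 7 genes a group in a single library give no test. Their ratios ran from 4.27 to 7.20, or from 2.99 with the overlapping peak taken at Psmb6. The catalytic subunits are Psmb5, Psmb6 and Psmb7, which cut after hydrophobic, acidic and basic residues. Psmb5 (chromosome 14, 54614120 to 54617995) had peaks of 4322 bp with romidepsin (fold 3.70) and 1011 bp in CM (fold 6.20), and the CM peak reached 90 bases upstream of the start, past the antioxidant response element core printed above. Psmb6 (chromosome 11, 70525324 to 70527858) had a peak over its start of 2386 bp with romidepsin (fold 4.06) and 799 bp in CM (fold 5.20), while its longest romidepsin peak, 3657 bp, began 147 bases beyond the gene. Psmb7 (chromosome 2, 38588046 to 38643952) had 15 romidepsin peaks within 1 kb of its span of 55907 bp, of which 14 met the gene itself. The longest, of 4674 bp (fold 3.22), stood over the right end of the gene, as did the only CM peak, of 970 bp (fold 6.99).

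Among the non-catalytic beta genes, Psmb2 had a fold of 3.51 in the romidepsin list, at the 33.9 percentile of genes with a peak there, and 7.37 in the CM list, at the 96.4 percentile. Psmb4 had 3.71 in the romidepsin list (46.0 percentile) and 7.04 in the CM list (92.3 percentile). The order of the ranks was the reverse at Psmb1, with 4.38 in the romidepsin list (91.5 percentile) and 6.23 in the CM list (69.5 percentile). Psmb3 had the longest romidepsin peak of the ring, 12181 bp, which also met Pcgf2, a Polycomb group gene, and met 2 CM peaks, and its own CM peak was 1692 bp long. The romidepsin peak of Psmb1, 8083 bp, also met Tbp, the gene of the TATA-binding protein, and met 2 CM peaks, of which that at Psmb1 was 1737 bp long.

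The 6 ATPase genes, whose products form the unfolding ring of the cap, had the highest median romidepsin length of the structural groups. It was 7522.5 bp with romidepsin (range 3469 to 11292) and 1271.5 bp in CM (range 746 to 2167). Psmc6 (chromosome 14, 45329823 to 45349074) had the highest ratio of the structural subunits, 10.5, from a romidepsin peak of 10128 bp (fold 3.40) over a CM peak of 969 bp (fold 6.004). Psmc1 had 11292 bp with romidepsin and 1616 bp in CM. Psmc5 had the lowest ratio of the ATPases, 2.07, with 4480 and 2167 bp, in peaks that also met Ftsj3, whose divergent start lies 101 bases away. Psmc2 (chromosome 5, 21785275 to 21803787) has 2 listed starts, at 21785275 and 21786747. A single romidepsin peak of 9165 bp covered both, where CM had separate peaks of 1331 and 1257 bp. The romidepsin peak and the CM peak of 1331 bp also met Dnajc2. Psmc4 had a romidepsin peak of 3469 bp (fold 3.76) and the shortest CM peak of the structural subunits, 746 bp (fold 5.61), which ended 4 bases inside the listed start.

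The 11 non-ATPase cap genes had medians of 5496 bp with romidepsin (range 3050 to 12300) and 1564 bp in CM (range 1027 to 2645). Psmd2, a large scaffold subunit that docks ubiquitin shuttle factors (chromosome 16, 20651122 to 20663414), had the longest romidepsin peak of the group and its highest ratio, 8.48, with 12300 bp (fold 3.37) over a CM peak of 1451 bp (fold 5.68). The other scaffold gene, Psmd1, had 5699 bp with romidepsin and 1848 bp in CM. Psmd14, which encodes the deubiquitinase of the cap (chromosome 2, 61711694 to 61800376), is the longest of the 38 genes and had short peaks, 3050 bp with romidepsin (fold 3.69) and 1103 bp in CM (fold 5.53), at its start. Its partner in the deubiquitinase dimer, Psmd7, had 3086 and 1027 bp. Psmd4, a ubiquitin receptor of the cap, had 5791 bp with romidepsin and 1874 bp in CM. Psmd13 had 11837 bp with romidepsin and the longest CM peak of the group, 2645 bp, both also meeting the deacetylase gene Sirt3, whose divergent start lies 85 bases away.

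Psmd3 had a fold of 3.69 in the romidepsin list (44.8 percentile) and 7.42 in the CM list (96.9 percentile), where it was the highest of the 38 genes. Psmd6 had 3.99 in the romidepsin list (68.1 percentile) and 7.18 in the CM list (94.0 percentile). Other genes ranked higher in the romidepsin list. Psmd4 had 4.00 there (69.1 percentile) and 5.43 in the CM list (38.0 percentile). Psma5 of the alpha ring had 4.44 in the romidepsin list (93.5 percentile) and 5.61 in the CM list (44.6 percentile). Psmd11 had the highest romidepsin fold of all peaks at the 38 genes, 4.53 in a peak of 3549 bp over its start, and 6.66 in a CM peak of 1873 bp, and the length ratio of 1.89 was the lowest of the cap genes when the overlapping peaks were compared. Its longest romidepsin peak, 5388 bp, lay 507 bases beyond the gene and met Cdk5r1. Across the 36 genes with both peaks, lengths in the lists had a Spearman rho of 0.409. This and the next values are descriptions across genes of a single library pair, and genes are not independent replicates. Gene span had a rho of 0.0165 with the romidepsin length and 0.275 with the CM length.

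The assembly chaperones bind the ATPases while the cap is built. Psmd5 had peaks of 4947 bp with romidepsin and 2144 bp in CM, and Psmd9 of 3961 and 1177 bp. Psmd10 (chromosome X, 140948425 to 140956711), whose product is also called gankyrin, had a romidepsin peak of 2315 bp with a fold of 3.14 and a −log10 q of 3.83. Its CM peak was the weakest of the 36, 298 bp with a fold of 3.80 and a −log10 q of 1.81, at the 0.819 percentile of length and the 4.09 percentile of fold. Both peaks also met Atg4a, an autophagy gene whose divergent start lies 196 bases away. With equal numbers of strongest peaks in each list, Psmd10 and Psmb7 had a CM peak and no romidepsin peak.

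Psma8 (chromosome 18, 14706135 to 14762301), the alpha subunit of spermatocytes, had no peak in either list, also within 2.5 kb of its span. Psmb11 (chromosome 14, 54625310 to 54629556), the beta subunit of the thymic cortex, had 0 CM peaks and 1 romidepsin peak of 708 bp, with a fold of 2.33 and a −log10 q of 1.47, which lay 281 bases beyond the gene's far end and 4528 bases from its start. Its promoter window met no peak in either list, and held 4 CpG dinucleotides. Psmb5, the constitutive gene whose product Psmb11 replaces in the thymic cortex, lies beside it on the same chromosome and had peaks in both lists. Psmb10 (chromosome 8, 105935728 to 105938392), the immunoproteasome subunit that replaces Psmb7, had peaks of 6749 bp with romidepsin (fold 3.73, also meeting Lcat) and 1326 bp in CM (fold 6.22). Its promoter window held 3 CpG dinucleotides. Psmc3ip had the longest romidepsin peak of the 38 genes, 19349 bp (fold 4.19), over a CM peak of 1093 bp with a fold of 6.27. The romidepsin peak met 4 CM peaks and also met Hsd17b1, Coasy, Mlx and Retreg3.

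The longest peak also met another protein-coding gene at 13 of 37 genes with romidepsin (33.3% of all genes with a peak) and at 7 of 36 in CM (26.0%). A divergent start within 1 kb upstream was listed for 5 of the 31 genes, namely Psma2, Psma7, Psmc5, Psmd10 and Psmd13 (8.48% of all). For these genes the peak cannot be assigned to either partner. Nor can the other shared peaks be assigned to a single gene. Among them, the romidepsin peak of Psma4 met Hykk and AY074887, its CM peak met AY074887, and the romidepsin peak of Psmd8 met Catsperg1.

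Other housekeeping groups were measured in the same way. Ribosomal protein genes had a median longest peak of 7970.5 bp with romidepsin and 2054 bp in CM, with a median ratio of 3.93. Respiratory chain genes had 5064 bp with romidepsin and 1692 bp in CM, with a median ratio of 3.08. Ribosomal genes are short, with a median span of 3175 bp, and 57 of 81 lay wholly inside a romidepsin peak, against 3 of 38 proteasome genes. These differences between gene groups were not tested.

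**Figure D4:**
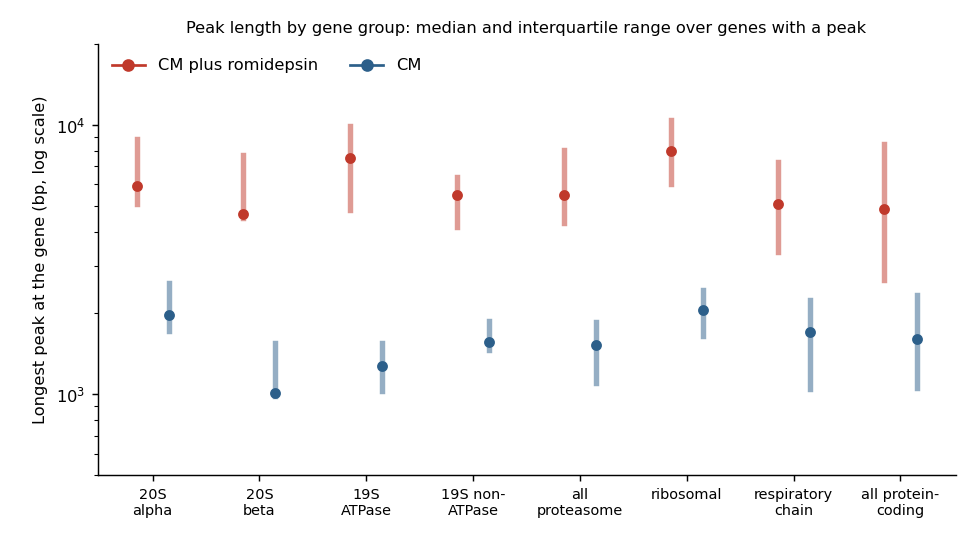
Median (point) and interquartile range (bar) of the longest peak per gene in bp, on a log scale, for CM plus romidepsin (red, left) and CM (blue, right) by gene group, over genes with a peak. The ATPases stand at 7522.5 bp with romidepsin and 1271.5 bp in CM, and the alpha ring at 5898 and 1958 bp.

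Of 38 listed genes of proteasome regulation, assembly and ubiquitin supply, 37 were matched to the table, and all 37 had a peak with romidepsin (68.3% of all genes) and in CM (53.6%). Their median longest peak was 6487 bp with romidepsin and 1965 bp in CM. Nfe2l1, the transcription factor that raises proteasome genes when proteasome activity falls, had a longest peak of 14380 bp with romidepsin (fold 3.88) and 2527 bp in CM (fold 5.01). Ddi2, the protease that activates it, had 15798 and 2334 bp, and Nfe2l2, its relative in the oxidative stress response, had 17654 and 5909 bp. Ngly1, the enzyme that removes sugars from the Nfe2l1 protein, had 4874 bp with romidepsin and 1804 bp in CM. The immunoproteasome genes Psmb8 and Psmb9 shared a single romidepsin peak of 17495 bp that also met Tap1, where CM had separate peaks of 2047 and 3774 bp. The cap subunit genes with other symbols were Adrm1, a ubiquitin receptor, with 4799 bp with romidepsin and 1265 bp in CM, and Sem1 with 8036 and 2723 bp. Pomp, the chaperone of core assembly, had 4272 and 1813 bp, and the core inhibitor gene Psmf1 had 3292 and 1464 bp. The polyubiquitin gene Ubb had a peak of 8884 bp with romidepsin and 5069 bp in CM, where the longest peak at the 38 genes was 3690 bp.

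The 31 genes with a listed start had 33 promoter windows. The ETS core CCGGAAG, the letters that ETS family factors bind, was found on either strand in 12 of 33 windows (36.4%), against 21.0% of 9894 windows of protein-coding genes that met a CM peak and 11.6% of all 21263 windows. The 12 windows belonged to 11 genes, 9 of them structural subunits of the 19S cap. Windows were at hand for 5 ATPase and 9 other cap subunit genes, 7 alpha ring genes and 4 beta ring genes. The antioxidant response element core, bound by Nfe2l1 and Nfe2l2 with small MAF partners, was found in 5 windows (15.2%), those of Psmb5, Psmb6, Psmc6, Psmd9 and Psmd12, against 14.9% of windows with a CM peak and 12.98% of all. The CCAAT box was found in 13 windows (39.4%, against 37.6% and 38.2%) and the nuclear respiratory factor core in 2 (6.06%, against 5.91% and 3.52%). The TATA box was found in 3 windows (9.09%, against 5.87% and 12.6%), and the E-box in 3 (9.09%, against 10.6% and 7.84%). A match describes letters in the reference and does not show binding, and no test was run on these shares. The windows held a median of 20 CpG dinucleotides, against 23 in windows with a CM peak and 13 in all.

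At 9 genes an ETS core began within 50 bases before the start, and these sites are shown with 8 bases on either side, in the direction of the gene, because they lie under the start-site peaks measured above. Such a core was found in 9 of the 33 windows (27.3%), against 8.76% of windows with a CM peak and 4.70% of all windows, and these shares were not tested. Capitals mark the core, written CCGGAAG at 4 genes and as its reverse complement CTTCCGG at 5. The genes are on the plus strand apart from Psmd6 and Psmc3ip, and positions are in GRCm38.p6.
Psma6, chromosome 12, 55398815 to 55398837: ccggtgctCCGGAAGcagtagcc
Psmc1, chromosome 12, 100110166 to 100110188: tggatgcaCTTCCGGcggtggcg
Psmc2, chromosome 5, 21786715 to 21786737: cggagctaCTTCCGGtggggaag
Psmd2, chromosome 16, 20651618 to 20651640: gcagggcgCTTCCGGtctggagg
Psmd6, chromosome 14, 14120976 to 14120998: agacgcgaCCGGAAGtcagactg
Psmd11, chromosome 11, 80428596 to 80428618: gggcgggtCTTCCGGgtgtgtgt
Psmd12, chromosome 11, 107479503 to 107479525: gcgggcgaCTTCCGGtgcgagtg
Psmd13, chromosome 7, 140882380 to 140882402: ccgcggtgCCGGAAGtgagcgag
Psmc3ip, chromosome 11, 101095428 to 101095450: cctcctcaCCGGAAGgaggcgtt
The core begins 2 bases before the start at Psma6, at its downstream start, 6 bases before it at Psmd13, 7 at Psmc3ip, 11 at Psmd11 and 17 at Psmd12. It begins 24 bases before the second listed start of Psmc2, 26 before the listed start of Psmd2, 28 before that of Psmc1 and 45 before that of Psmd6. The promoter windows of all 9 genes that hold these sites met a peak in both lists.

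**Figure D5:**
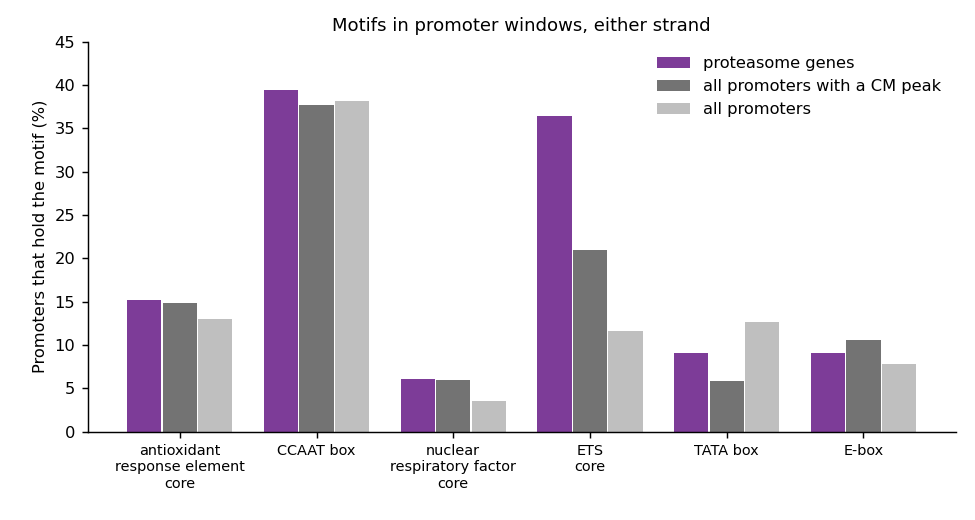
Percentage of 300-base promoter windows that hold each of 6 motifs on either strand, for proteasome genes (33 windows), all windows that met a CM peak (9894) and all windows (21263). The ETS core stands at 36.4%, 21.0% and 11.6%, and the antioxidant response element core at 15.2%, 14.9% and 12.98%.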

How the data were processed

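The tools named, per the submitters' processing notes, are MACS2 2.2.7.1, Bowtie2 2.4.4 and deepTools 3.5.1, with the mm10 build. Settings, read filters and the use of the input as control are not given in the sources used here. The authors deposited a broad peak list for each immunoprecipitated library. Per peak, the deposited columns hold a score, a fold enrichment (ratio) and p- and q-values on a −log10 scale, as the authors deposited them. Peaks were not pooled, and depth is unknown.

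Gene spans came from RefSeq (GRCm38.p6), and start sites, strands and promoter sequences from RefSeq promoter windows. Exons, introns and UTRs were not used here. Overlaps, lengths and motif matches were computed in Python (version 3.11.15) with numpy (version 2.4.6), and tested on simulated peaks. Peaks are written with the first base numbered 1. Percentiles are among protein-coding genes with a peak in the same list. All members could be named. Values were given for extremes of each role group, catalytic and tissue-restricted subunits and Nfe2l1, and further genes were chosen after their values were seen. The members and lists were chosen with earlier results of these data known. Alternatives covered the window, overlap, thresholds, list size, merging and choice of peak and members.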

Additional observations from a re-analysis of the deposited data

How the results depend on the processing

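With 1 library per condition and unknown depth, no difference between conditions can be told from one between libraries. Of 177 values recomputed under 16 alternatives for 12 results, 149 stayed within 1.5 times the reported value. The count of genes with a peak in romidepsin only, 1 as reported, was 0 for spans without a flank, at a fold of at least 3 or 5, for peaks with −log10 q from 10 upwards, with equal numbers of strongest peaks and for structural subunits only. It was 2 for gene ends only, for promoter windows and for an overlap of at least 500 bp. It was 5 when the −log10 q had to reach 5, where Psma4, Psmb7 and Psmd2 had a CM peak and no romidepsin peak. At that cut 49.8% of all genes had a peak with romidepsin and 32.4% in CM. The share of all genes with a romidepsin peak only is not given for these alternatives. The covered share had a median of 28.6% in CM for gene ends, 100% with romidepsin and 89.3% in CM for promoter windows, and 28.3% with romidepsin for a −log10 q from 5 upwards. A −log10 q of at least 10 left 0 genes with a peak, 0 inside a peak or sharing one and 0% covered in either list, where 0.694% of all genes had a peak with romidepsin and 0.279% in CM. A fold of at least 5 left 0 genes with a romidepsin peak (0.489% of all genes) and 35 with a CM peak (40.5% of all). With romidepsin 0 genes then lay inside or shared a peak, and 0% was covered. Merging peaks closer than 1 kb gave a romidepsin median of 8720 bp and 10 genes wholly inside a peak. The share of all genes inside a merged peak is not given here, so this count cannot be set beside that of the genome. Without merging, 1 of the structural subunits lay wholly inside a romidepsin peak. Lists cut to equal size left 34 genes with a romidepsin peak (54.5% of all genes) and 36 with a CM peak (53.6%). The median ratio was then 3.44. Where 0 genes had a peak, no median length or ratio could be given, and no library could be left out. The use of the overlapping romidepsin peak was chosen after seeing the data. No paired analysis was possible because each condition had 1 library.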

Other observations

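RefSeq lists 6 pseudogenes of the same family, which are copies of subunit transcripts. With romidepsin 1 of them, Psmb7-ps1 on the X chromosome, had peaks within 1 kb of its span, 2 in number and at most 1001 bp long, which lay at the gene Msn. In CM 0 of the 6 had a peak.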
